A study of Homo sapiens with 15 samples.

Results

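Mitochondrial ribosomal protein genes are nuclear genes that encode the proteins of the ribosome inside mitochondria. They were chosen by annotation: protein-coding genes whose symbol starts with MRPL or MRPS followed by a digit, pseudogenes left out. This gave 78 of the 62754 Ensembl gene IDs in the count table, 49 named MRPL for the large subunit and 29 named MRPS for the small subunit. The cells were NCI-H69, an established human line of classic small cell lung cancer, and the libraries were made from its messenger RNA. In the first group of 3 libraries the cells had received CS2, in the second group of 3 libraries FB23-2, and in the control group of 3 libraries DMSO, the solvent. The series names both compounds as inhibitors of the RNA demethylase FTO, which acts on m6A. CS2 is better known as brequinar, which blocks the pyrimidine-synthesis enzyme DHODH of the mitochondrial inner membrane. Dose and exposure time, not given in the sources used here, stay unstated, and whether the compounds were used at matched doses is unknown. The 6 samples of the line H82 were not analysed here.

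The mitochondrial ribosome translates the messenger RNAs of the mitochondrial genome, which code for core subunits of the respiratory chain and of ATP synthase. Its proteins are made in the cytosol, imported, and assembled in the matrix around an rRNA for each subunit, MT-RNR1 for the small and MT-RNR2 for the large, which the mitochondrial genome itself encodes. Some of the proteins descend from bacterial ribosomal proteins, while others have no bacterial counterpart. Promoters of nuclear genes for mitochondrial proteins are known for binding sites of ETS factors such as GABP, of NRF1 and of YY1.

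Total counts ranged from 29916267 to 33663742 in the CS2 libraries, from 32352835 to 43957839 in the FB23-2 libraries and from 31404658 to 45022633 in the DMSO libraries. The neuroendocrine markers INSM1, CHGA, SYP, NCAM1 and GRP were each above 1 CPM (counts scaled to the total count of the library) in each group. Their summed level was 1751 to 1823 CPM with CS2, 1774 to 1904 CPM with FB23-2 and 2145 to 2341 CPM with DMSO, lower in every treated library than in any DMSO library. Of 6 fibroblast markers, 1 exceeded 1 CPM, and their sum was 33.0 to 39.9 CPM with CS2, 10.6 to 15.4 CPM with FB23-2 and 52.9 to 54.6 CPM with DMSO. Sums of leukocyte, endothelial and airway markers stayed at or below 6.82 CPM in every library. The mitochondrial genome took 7.30% to 9.05% of the counts with CS2, 6.83% to 11.0% with FB23-2 and 5.18% to 5.69% with DMSO, so every treated library exceeded every DMSO library. Replicate 2 of FB23-2 held the 11.0%, where FB23-2 replicates 1 and 3 had 6.83% and 6.91%. The part of these differences in the results was not tested. In bulk RNA, fewer cells of a type and less RNA per cell cannot be told apart.

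Of the 78 members, 77 passed the filter on low counts, 48 of the large and all 29 of the small subunit. The exception, MRPL53, had 0 counts in all 9 libraries. Another gene, CCDC142, overlaps 45.2% of its exon bases, and no source used here says how such bases were counted. In 27 of the 78 members, over 10% of exon bases or of 50-base transcript windows were shared with other genes. Exon overlap was 15.5% for MRPL20 and 16.3% for MRPS12. Levels of different genes were compared as CPM per kilobase of exon. In the DMSO libraries the mean level of the tested members ran from 0.125 to 72.7 CPM per kilobase with a median of 16.6, and the median was 17.4 for the large and 12.8 for the small subunit.

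With DMSO the highest levels per length belonged to MRPL51, a large-subunit protein without a bacterial homologue, MRPL41 and MRPS34. MRPL51 averaged 68.9 ± 7.1 CPM per kilobase with CS2, 44.7 ± 8.3 with FB23-2 and 72.7 ± 3.3 with DMSO (SD, n = 3 each). MRPL41 averaged 68.1 ± 8.9, 56.9 ± 11 and 71.6 ± 5.5 CPM per kilobase in the CS2, FB23-2 and DMSO libraries. MRPS34 averaged 95.4 ± 10 CPM per kilobase with CS2, 57.2 ± 3.4 with FB23-2 and 70.9 ± 3.1 with DMSO. With DMSO these 3 members lay within each other's SD, so their order there is not resolved. MRPL18 averaged 70.8 ± 8.1 CPM per kilobase with CS2, 64.1 ± 8.0 with FB23-2, above all 3, and 63.4 ± 1.8 with DMSO. With DMSO the lowest tested levels were those of MRPS24, MRPL46 and MRPL38. These had 0.0923 ± 0.054, 0.737 ± 0.14 and 1.34 ± 0.31 CPM per kilobase in the CS2 libraries. With FB23-2 they were 0.152 ± 0.043, 0.872 ± 0.1 and 1.20 ± 0.22 CPM per kilobase, and with DMSO 0.125 ± 0.11, 0.786 ± 0.059 and 0.880 ± 0.094 CPM per kilobase. MRPS24 was represented by as little as 0.0884 CPM in a CS2 library, close to what 3 counts give (0.0666 to 0.1 CPM over the libraries). All 3 share exon bases with another gene (23.2%, 11.3% and 41.1%), so their levels are uncertain.

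In the human genome the members were spread over 21 chromosomes. Their median span was 11.9 kb, against 27.3 kb for all protein-coding genes of the table, and 18 members (23.1%) had another protein-coding gene starting on the opposite strand within 1 kb, against 8.20% of protein-coding genes. An example inside the set was MRPS11 and MRPL46 on chromosome 15, whose outermost GENCODE starts lie 34 bases apart. The RefSeq starts of these genes lie at other positions. RefSeq promoter sequences of build GRCh38.p14, from 250 bases before to 50 after the start, were found for 69 members. The letters CCGGAAG, a core that ETS factors bind, occurred on either strand in 29 of these 69 promoters (42.0%), against 14.2% of 15842 protein-coding promoters of the same length. AAGATGGCG, a YY1 element, occurred in 13 (18.8%), against 2.74%. GCGCATGCG, 9 bases of the NRF1 element matched exactly, occurred in 3 (4.35%), against 2.76%. CACGTG, the E-box of MYC-type factors, occurred in 6 (8.70%), against 8.88%, and TGATGNAAT, a C/EBP-ATF element, in 1 (1.45%), against 0.625%. Overlapping matches were each counted. Large- and small-subunit promoters held the ETS letters at 40.5% and 44.4%. The matches are descriptions of sequence, not evidence of binding.

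**Figure D1:**
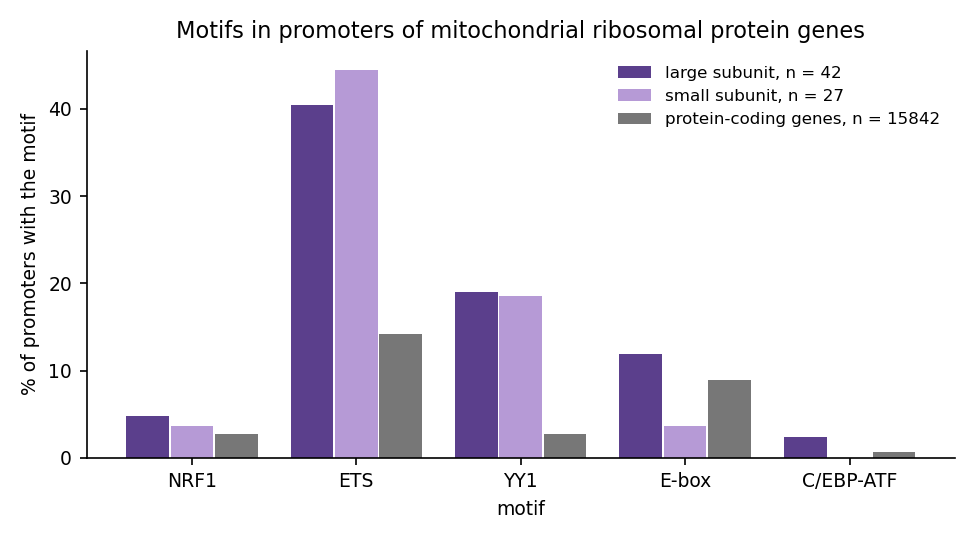
Share of promoters (y axis, percent, 250 bases before to 50 after the start) holding each of 5 motifs (x axis) for large-subunit members (dark bars, n = 42), small-subunit members (light bars, n = 27) and all protein-coding genes (grey bars, n = 15842). ETS letters occurred in 40.5% and 44.4% of member promoters, against 14.2% of protein-coding promoters, and the YY1 element in 19.0% and 18.5%, against 2.74%.

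Promoters are shown for 4 called members with repeated ETS letters and for 2 called members without any of the motifs, chosen after their values were seen, as the 250 bases before the RefSeq start, read 5′ to 3′ on the gene's strand, with ETS letters (or their reverse complement CTTCCGG) in capitals. MRPL20 (chr1:1407294-1407543 on the minus strand), MRPL51 (chr12:6493263-6493512 on the minus strand), MRPS34 (chr16:1773135-1773384 on the minus strand) and MRPL58 (chr17:75012420-75012669 on the plus strand) held 2, 2, 3 and 2 matches. MRPL24 (chr1:156741089-156741338 on the minus strand) and MRPS5 (chr2:95121809-95122058 on the minus strand) held none of the 5 motifs in this window.
MRPL20: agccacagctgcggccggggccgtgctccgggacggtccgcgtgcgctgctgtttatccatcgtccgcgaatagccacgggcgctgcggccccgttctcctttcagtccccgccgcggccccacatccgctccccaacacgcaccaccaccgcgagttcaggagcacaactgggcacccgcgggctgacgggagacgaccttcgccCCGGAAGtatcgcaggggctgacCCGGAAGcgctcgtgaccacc
MRPL51: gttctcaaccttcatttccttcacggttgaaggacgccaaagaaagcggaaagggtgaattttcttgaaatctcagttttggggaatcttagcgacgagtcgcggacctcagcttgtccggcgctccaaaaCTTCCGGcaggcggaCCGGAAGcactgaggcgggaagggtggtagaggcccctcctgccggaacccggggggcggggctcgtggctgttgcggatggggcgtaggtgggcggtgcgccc
MRPS34: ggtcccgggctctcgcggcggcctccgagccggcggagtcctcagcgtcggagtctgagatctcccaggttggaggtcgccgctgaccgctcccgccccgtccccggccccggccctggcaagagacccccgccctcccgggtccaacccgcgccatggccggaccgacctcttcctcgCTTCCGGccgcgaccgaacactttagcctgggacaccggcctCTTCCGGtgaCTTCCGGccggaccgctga
MRPL58: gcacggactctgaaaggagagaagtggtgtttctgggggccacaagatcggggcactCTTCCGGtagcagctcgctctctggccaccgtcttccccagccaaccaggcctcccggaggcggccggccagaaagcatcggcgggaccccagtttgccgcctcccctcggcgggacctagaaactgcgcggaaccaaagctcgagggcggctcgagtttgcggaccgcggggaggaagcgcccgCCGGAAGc
MRPL24: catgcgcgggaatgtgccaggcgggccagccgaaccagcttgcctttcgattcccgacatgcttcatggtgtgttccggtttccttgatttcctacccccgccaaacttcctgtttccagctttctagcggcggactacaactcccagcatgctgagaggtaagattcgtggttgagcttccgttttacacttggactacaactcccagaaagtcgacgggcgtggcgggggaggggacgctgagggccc
MRPS5: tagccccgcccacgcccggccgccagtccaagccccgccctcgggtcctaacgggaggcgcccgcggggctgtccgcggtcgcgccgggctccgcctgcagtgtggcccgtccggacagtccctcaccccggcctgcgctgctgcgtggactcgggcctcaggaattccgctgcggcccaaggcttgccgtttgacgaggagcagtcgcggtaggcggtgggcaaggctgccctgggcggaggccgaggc
Over all members, the 30 ETS matches that lay before the start had a median distance of 27.5 bases to it.

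The mitochondrial ribosomal protein genes differed from DMSO in unlike ways with CS2 and with FB23-2. With CS2 16 members were higher and 16 lower than with DMSO, where 49.7% of all genes tested were called, 24.3% higher and 25.3% lower. With FB23-2 31 members were lower, 7 higher and 39 not called, where 52% of all genes were called, 25.4% higher and 26.7% lower. Of the 31 lower members 25 were large-subunit genes, which make up 48 of the 77 tested, and 10 of the 31 lost their call after a correction for GC content and gene span. Calls are from edgeR's quasi-likelihood test across 19781 genes, with a threshold of 0.05 on the Benjamini-Hochberg p. At least 1 of the 3 comparisons called 59 of the 77 tested members (76.6%), against 78.5% of all genes tested, and only MRPL24 and MRPL54 differed by more than 2-fold in any. The p-values rest on the spread of libraries described by the series as biological replicates, and both comparisons with DMSO use the same 3 DMSO libraries.

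**Figure D2:**
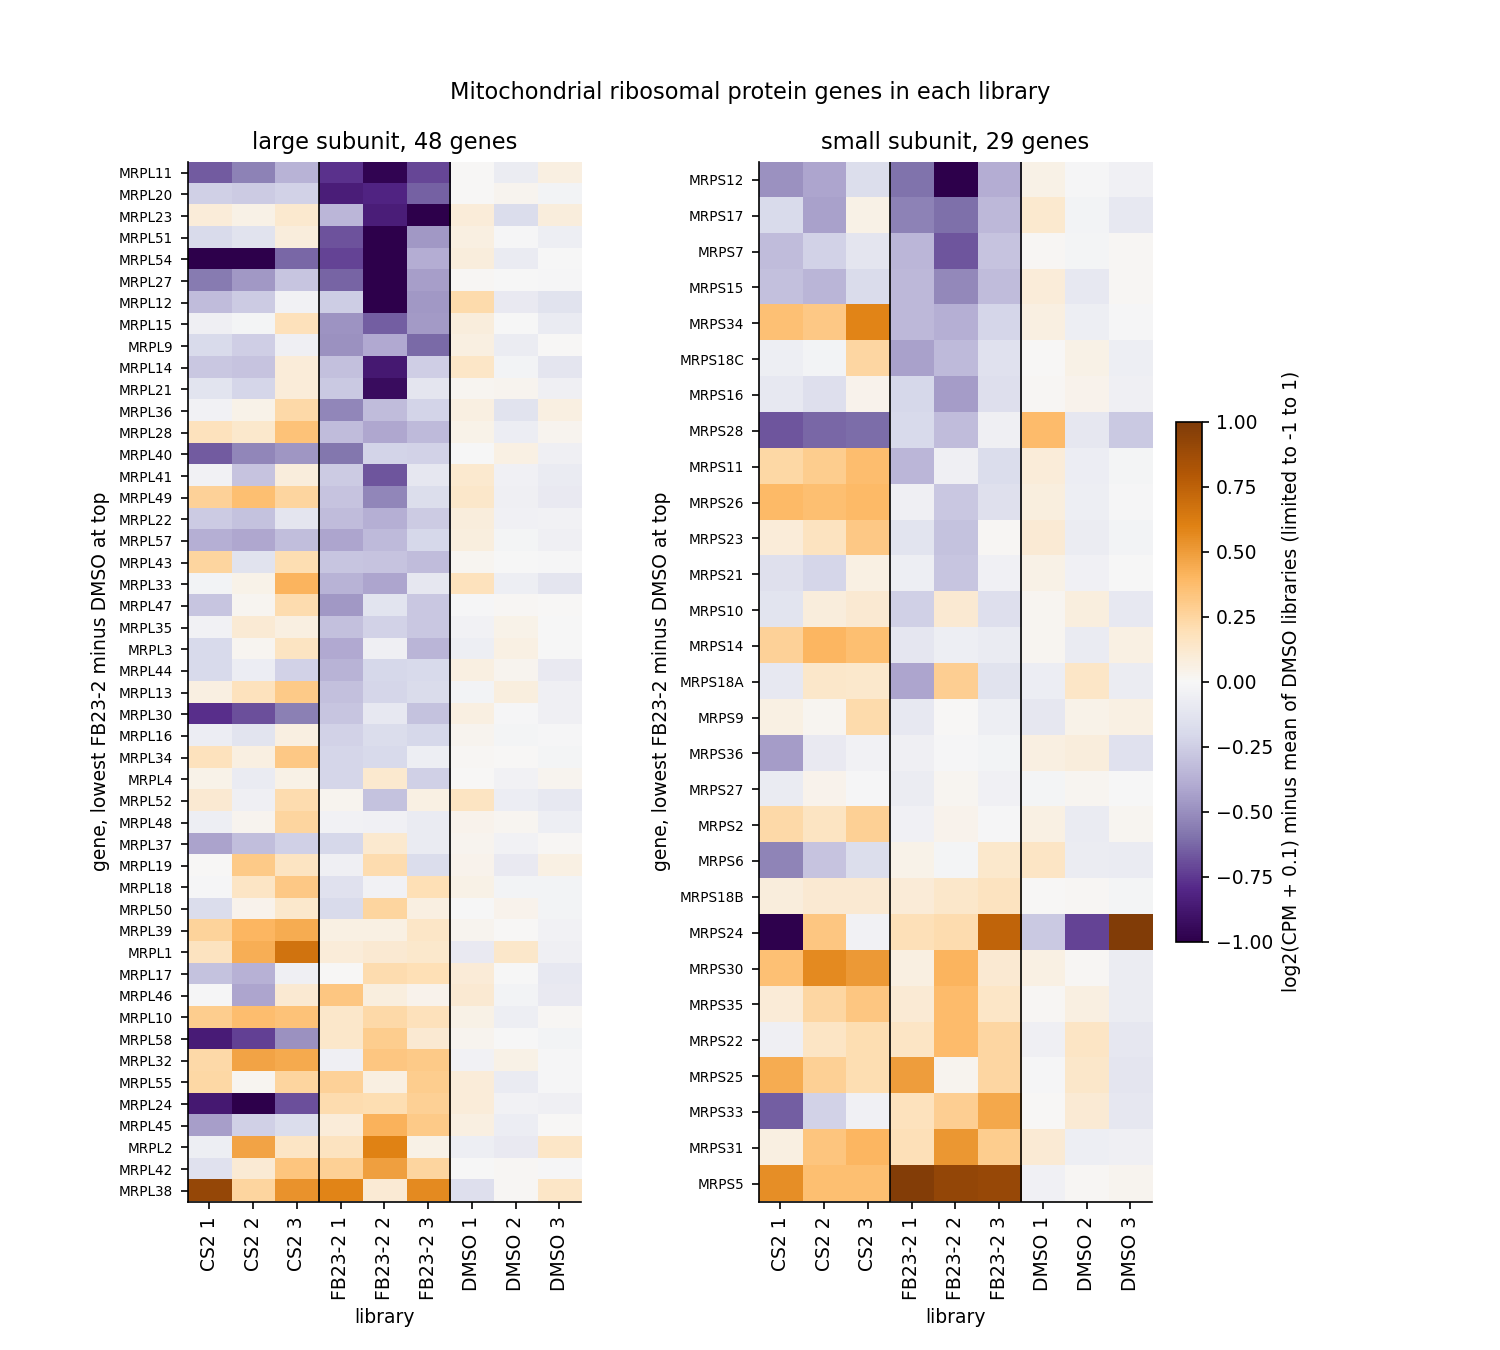
Heat map of the 77 tested members (rows, large subunit left, small subunit right, sorted by FB23-2 minus DMSO) in the 9 libraries (columns), as log2(CPM + 0.1) minus the mean of the DMSO libraries, with colours limited to -1 to 1. Purple cells fill most of the upper large-subunit rows in the FB23-2 libraries, while the CS2 columns hold both purple and orange rows, and MRPS5 at the lower right is orange with both compounds.

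In the CS2 libraries 32 of 77 members were called (49.7% of all genes tested were), 16 higher and 16 lower, where 24.3% and 25.3% of all genes were. Among protein-coding genes these shares were 27.5% and 26.7%. The large subunit had 7 higher and 12 lower of 48, and the small subunit 9 higher and 4 lower of 29. The median log2 fold change was 0.00 for the large subunit, 0.06 for the small and -0.00 for all genes tested. The 5 largest decreases belonged to the large subunit apart from MRPS28, and included MRPL58, which can release peptides from stalled ribosomes, and MRPL24, which in bacteria starts the folding of the large-subunit rRNA.

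MRPL54, a large-subunit protein without a bacterial homologue, had 12.4, 10.1 and 19.9 CPM with CS2, 18.7, 15.2 and 23.6 CPM with FB23-2 and 32.8, 29.2 and 30.8 CPM with DMSO. Every library of either compound lay below every DMSO library. It fell 2.19-fold with CS2 (log2 fold change -1.13 ± 0.22 SE, adjusted p = 0.00123). MRPL24 had 21.7, 19.3 and 24.6 CPM with CS2, 46.2, 45.9 and 48.3 CPM with FB23-2 and 42.3, 38.8 and 38.4 CPM with DMSO, so the groups did not overlap and DMSO lay between the compounds. It fell 1.82-fold with CS2 (-0.87 ± 0.10, adjusted p = 4.55e-07). MRPL58 had 21.3, 23.1 and 27.3 CPM with CS2, 42.3, 47.1 and 41.6 CPM with FB23-2 and 39.1, 38.4 and 37.8 CPM with DMSO, and it fell 1.61-fold with CS2 (-0.69 ± 0.10, adjusted p = 1.18e-05). Only the CS2 libraries were low.

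MRPL30, a homologue of a bacterial large-subunit protein, had 25.3, 26.9 and 29.5 CPM with CS2, 35.6, 40.5 and 35.2 CPM with FB23-2 and 45.4, 42.9 and 41.7 CPM with DMSO. The groups stood in this order without overlap, and MRPL30 fell by 0.67 ± 0.09 on the log2 scale with CS2 (adjusted p = 7.39e-06). Another gene covers 19.5% of its exon bases. MRPS28 had 1.68, 1.74 and 1.76 CPM with CS2, 2.39, 2.18 and 2.65 CPM with FB23-2 and 3.61, 2.54 and 2.27 CPM with DMSO. Its level was low, and 35.8% of its exon bases overlap another gene. It fell with CS2 (-0.70 ± 0.22, adjusted p = 0.0124), though leaving out DMSO replicate 1 ended the call (-0.47). Further decreases with CS2 were those of MRPL40 (-0.55), MRPL11 (-0.52), MRPL27 (-0.44), MRPL57 (-0.37) and MRPL37 (-0.33).

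The increases with CS2 were smaller than the largest decreases. MRPS30, which carries a small-subunit name but lies in the large subunit in structures, had 102, 118 and 113 CPM with CS2, 83.5, 106 and 86.1 CPM with FB23-2 and 82.8, 80.4 and 75.7 CPM with DMSO. The CS2 and DMSO libraries did not overlap, and it rose by 0.48 ± 0.09 with CS2 (log2, adjusted p = 0.000239). MRPL1, a homologue of the protein of the bacterial L1 stalk, had 21.4, 25.8 and 30.4 CPM with CS2, 20.4, 20.6 and 20.8 CPM with FB23-2 and 18, 21 and 18.5 CPM with DMSO, and rose with CS2 (0.44 ± 0.12, adjusted p = 0.00417). The CS2 libraries were spread widely and the lowest exceeded the highest DMSO library by a small margin. MRPL38 had the largest increase but few counts, with 6.13, 3.86 and 4.69 CPM with CS2, 4.89, 3.45 and 4.81 CPM with FB23-2 and 2.87, 3.24 and 3.55 CPM with DMSO (0.60 ± 0.20 with CS2, adjusted p = 0.0153). Its call was lost without CS2 replicate 1 (0.41) or DMSO replicate 1 (0.53). The remaining increases were smaller, from 0.22 to 0.43, and included MRPL32 (0.39), MRPS26 (0.38), MRPL39 (0.37), MRPS14 (0.35) and MRPL10 (0.34).

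The counts with CS2 depended on single control libraries. Without DMSO replicate 3 only 21 members were called, 10 of them higher, and without DMSO replicate 1 only 9 were lower. Called under every alternative tried were 9 of the 16 higher members (MRPL1, MRPL10, MRPL32, MRPL39, MRPS5, MRPS14, MRPS26, MRPS30, MRPS34) and 9 of the 16 lower ones (MRPL11, MRPL24, MRPL27, MRPL30, MRPL37, MRPL40, MRPL54, MRPL57, MRPL58).

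In the FB23-2 libraries 38 of 77 members were called (52% of all genes tested were). The 7 higher members made up 9.09% of the set, where 25.4% of all genes were higher, and the 31 lower ones 40.3%, where 26.7% of all genes were lower. Protein-coding genes were higher in 28.8% of cases and lower in 29.2%. Of the large subunit 3 of 48 were higher and 25 lower (52.1%), and of the small subunit 4 of 29 were higher and 6 lower (20.7%). The median log2 fold change was -0.25 for the large subunit and -0.06 for the small, beside -0.00 for all genes tested. Large-subunit members with a bacterial homologue were lower in 16 of 28 cases (median -0.27), and those without in 9 of 20 (median -0.06).

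MRPL11, a homologue of the protein at the base of the bacterial ribosome's stalk, had 42.1, 45.5 and 51.7 CPM with CS2, 38.8, 33.8 and 40.5 CPM with FB23-2 and 66.8, 63.2 and 69.5 CPM with DMSO. The 3 groups did not overlap. It fell 1.76-fold with FB23-2 (-0.82 ± 0.10, adjusted p = 6.86e-07), the largest decrease of a member with this compound, and 1.43-fold with CS2 (-0.52 ± 0.10, adjusted p = 0.000149). MRPL20, whose bacterial homologue binds the large-subunit rRNA early in assembly, had 40.2, 39.6 and 40.4 CPM with CS2, 26.3, 26.8 and 30.3 CPM with FB23-2 and 47.4, 48.4 and 46.4 CPM with DMSO. It fell by 0.77 ± 0.09 with FB23-2 (adjusted p = 4.52e-07), and all FB23-2 libraries lay well under the rest. Its smaller decrease with CS2 (-0.24 ± 0.09, adjusted p = 0.0249) was lost when any 1 of the 6 CS2 and DMSO libraries was left out (-0.26 to -0.23). Without the filter that call was lost too (-0.24).

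MRPL23, a homologue of a bacterial protein at the exit of the peptide tunnel, had 30.6, 29.8 and 31.3 CPM with CS2, 22.6, 15.9 and 14.1 CPM with FB23-2 and 30.7, 25.5 and 30.5 CPM with DMSO. Only the FB23-2 libraries were low, and it fell by 0.72 ± 0.13 (adjusted p = 0.000147). MRPL51 had 98.5, 103 and 119 CPM with CS2, 70.1, 55.9 and 81.8 CPM with FB23-2 and 118, 112 and 108 CPM with DMSO. It fell with FB23-2 (-0.70 ± 0.11, adjusted p = 2.15e-05), while the CS2 and DMSO libraries overlapped (-0.08 ± 0.11, adjusted p = 0.575). NCAPD2 overlaps 31.3% of its exon bases. MRPS12, whose bacterial homologue lies at the decoding centre, had 33.1, 34.8 and 41.5 CPM with CS2, 30.7, 21.8 and 35.6 CPM with FB23-2 and 48.3, 46.2 and 45.3 CPM with DMSO, and fell with FB23-2 (-0.67 ± 0.13, adjusted p = 0.000381). Every library of either compound lay below DMSO. The call of MRPS12 with CS2 (-0.35 ± 0.13, adjusted p = 0.0335) was lost without any 1 DMSO library (-0.37 to -0.33) and without CS2 replicate 1 (-0.28) or 2 (-0.32). Library size alone as scaling ended it too (-0.35).

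MRPL54 also fell with FB23-2 (-0.69 ± 0.22, adjusted p = 0.0183), a call that was lost without FB23-2 replicate 1 (-0.67) or 2 (-0.55). MRPL12, which has been reported to bind the mitochondrial RNA polymerase, had 9.58, 9.96 and 11.7 CPM with CS2, 10.02, 4.55 and 8.66 CPM with FB23-2 and 14.0, 11.3 and 10.9 CPM with DMSO. It fell with FB23-2 (-0.65 ± 0.21, adjusted p = 0.0183), but 66.6% of its 50-base windows occur in another gene, and the call was lost without DMSO replicate 1 (-0.53). MRPL41 had 88.3, 73.7 and 95.7 CPM with CS2, 75.1, 56.5 and 83.9 CPM with FB23-2 and 98.4, 87.4 and 85.4 CPM with DMSO (-0.33 ± 0.12 with FB23-2, adjusted p = 0.0307). Its call was lost without DMSO replicate 1 (-0.27), FB23-2 replicate 1 (-0.35) or FB23-2 replicate 2 (-0.18), and with library size alone as scaling (-0.32). Other decreases included MRPL27 (-0.69), MRPL15 (-0.53), MRPL9 (-0.50), MRPS17 (-0.50) and MRPS7 (-0.43).

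MRPS5, the homologue of a bacterial protein that affects decoding accuracy, was the single member higher with both compounds. It had 19.0, 16.7 and 16.7 CPM with CS2, 25.7, 24.5 and 24.3 CPM with FB23-2 and 12.6, 13.1 and 13.2 CPM with DMSO. The groups were far apart relative to their spread, and MRPS5 rose 1.92-fold with FB23-2 (0.94 ± 0.10, adjusted p = 2.27e-07) and 1.35-fold with CS2 (0.43 ± 0.10, adjusted p = 0.00153). MRPL42, a large-subunit protein without a bacterial homologue, had 109, 129 and 151 CPM with CS2, 145, 169 and 144 CPM with FB23-2 and 120, 121 and 120 CPM with DMSO, and rose with FB23-2 (0.35 ± 0.10, adjusted p = 0.00588). The CS2 libraries overlapped both other groups. MRPS31 had 14.5, 17.5 and 18.3 CPM with CS2, 15.8, 19.9 and 17.0 CPM with FB23-2 and 14.9, 13.3 and 13.4 CPM with DMSO (0.34 ± 0.12 with FB23-2, adjusted p = 0.0223). Its call was lost without FB23-2 replicate 2 (0.24) and without DMSO replicate 2 (0.31) or 3 (0.31).

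Leaving out FB23-2 replicate 2, the library with the high mitochondrial share, gave 37 called members with FB23-2, 6 higher and 31 lower. Without FB23-2 replicate 1 only 20 were lower, and without DMSO replicate 3 only 2 were higher. A correction of each library for GC content and gene span raised the higher members to 12 and turned the direction of MRPS34 (0.03) and MRPL41 (0.16). It ended 10 of the 31 lower calls, those of MRPS34, MRPL41, MRPL12 (-0.36), MRPL14 (-0.36), MRPL21 (-0.30), MRPL28 (-0.08), MRPL36 (-0.21), MRPL40 (-0.18), MRPL43 (-0.15) and MRPL54 (-0.44). It ended 3 of the 7 higher calls, those of MRPL42 (0.12), MRPS31 (0.14) and MRPS33 (0.24). Called lower under every alternative tried were 15 of the 31 members (MRPL9, MRPL11, MRPL15, MRPL20, MRPL22, MRPL23, MRPL27, MRPL35, MRPL49, MRPL51, MRPL57, MRPS7, MRPS12, MRPS15, MRPS17), and called higher 1 of the 7 (MRPS5).

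**Figure D3:**
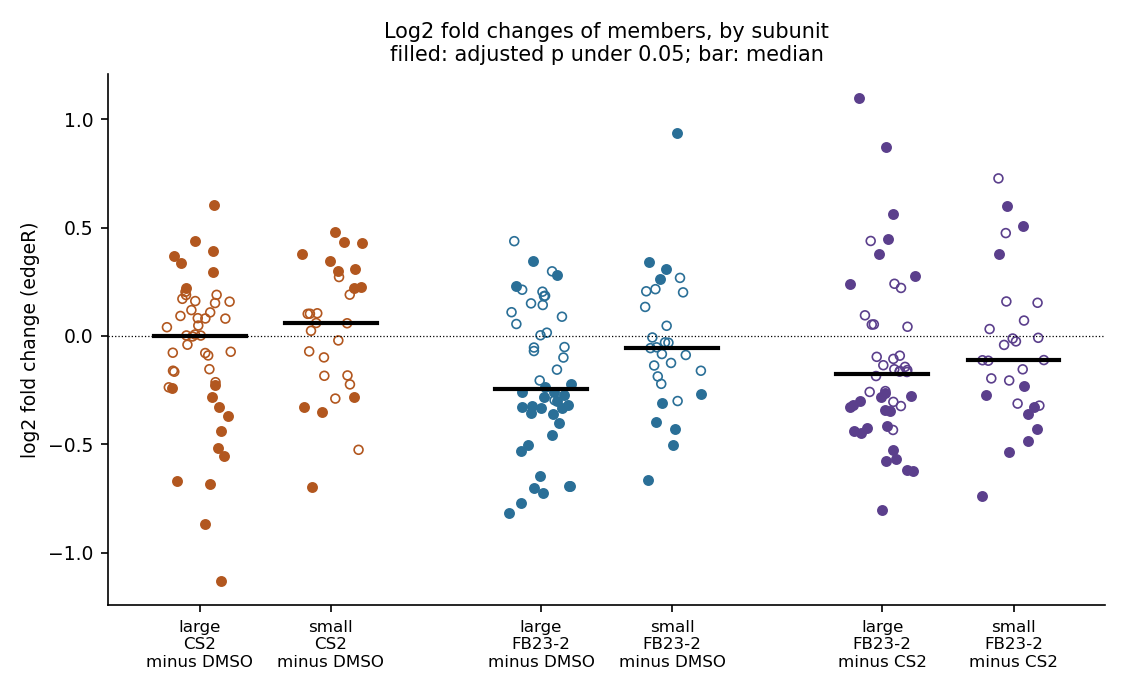
Log2 fold change (y axis, edgeR) of each tested member for the 3 comparisons, with large (n = 48) and small subunit (n = 29) side by side. Filled points had an adjusted p under 0.05, open points did not, and bars are medians. The median of the large subunit lay at -0.25 for FB23-2 minus DMSO and at 0.00 for CS2 minus DMSO, and MRPS5 stood at 0.94 in the small subunit with FB23-2.

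Between the compounds, FB23-2 libraries differed from CS2 libraries in 36 of 77 members (59.6% of all genes tested were called). Higher with FB23-2 were 10 members (13.0%, against 29.7% of all genes), and lower were 26 (33.8%, against 30% of all genes). Of protein-coding genes tested, 31.5% were higher and 32.8% lower, the latter near the share of the members. The large subunit had 7 higher and 18 lower, the small subunit 3 higher and 8 lower, and the medians were -0.18 and -0.11, beside 0.01 for all genes tested. This comparison does not use the DMSO libraries for the difference itself. The 9 members called in all 3 comparisons were MRPL11, MRPL20, MRPL24, MRPL28, MRPL30, MRPL45, MRPL49, MRPS5 and MRPS34. The share of all genes tested that were called in all 3 was not computed, so this count has no background.

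MRPL24 differed most: it was 2.14-fold higher with FB23-2 than with CS2 (1.10 ± 0.10, adjusted p = 1.06e-08), and against DMSO its increase with FB23-2 was small (0.23 ± 0.09, adjusted p = 0.0471). That increase was not called without DMSO replicate 2 (0.21), DMSO replicate 3 (0.20), FB23-2 replicate 1 (0.25) or FB23-2 replicate 3 (0.22). With library size alone as scaling (0.24) or without the filter (0.22) it was not called either. MRPL58 was 1.83-fold higher with FB23-2 than with CS2 (0.87 ± 0.10, adjusted p = 3.54e-07). MRPS33, a small-subunit protein without a bacterial homologue, had 46.8, 50.5 and 57.0 CPM with FB23-2, 26.3, 35.3 and 40.3 CPM with CS2 and 41.5, 44.5 and 38.5 CPM with DMSO. FB23-2 libraries lay above all CS2 libraries (0.60 ± 0.12, adjusted p = 0.000321), while CS2 and DMSO libraries overlapped. Its increase against DMSO (0.31 ± 0.12, adjusted p = 0.0389) was lost without FB23-2 replicate 2 (0.33) or 3 (0.25) and without DMSO replicate 1 (0.31) or 3 (0.26).

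MRPL45, which in mammals lies at the tunnel exit and attaches the ribosome to the inner membrane, had 43.6, 54.9 and 50.9 CPM with FB23-2, 30.2, 34.6 and 36.3 CPM with CS2 and 42.9, 39.1 and 41.1 CPM with DMSO. It was higher with FB23-2 than with CS2 (0.56 ± 0.10, adjusted p = 7.04e-05), with DMSO between. Its call with CS2 against DMSO (-0.28 ± 0.10, adjusted p = 0.0235) was lost without CS2 replicate 1 (-0.21) and without DMSO replicate 1 (-0.25) or 3 (-0.28). That with FB23-2 against DMSO (0.28 ± 0.10, adjusted p = 0.0232) was lost without FB23-2 replicate 2 (0.21) and without DMSO replicate 2 (0.25) or 3 (0.28). Of its 50-base windows 16.4% occur in another gene. MRPL30 was higher with FB23-2 than with CS2 (0.45 ± 0.09, adjusted p = 0.000416). Its decrease with FB23-2 against DMSO (-0.22 ± 0.09, adjusted p = 0.0493) lost its call under 12 of 19 alternatives (-0.25 to -0.17). These included another scaling (RLE), no filter, DESeq2, only the 6 libraries compared, and leaving out the mitochondrial genome. The rest left out any 1 DMSO library, CS2 replicate 2 or 3, or FB23-2 replicate 1 or 3.

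Lower with FB23-2 than with CS2 were MRPL23 (-0.80 ± 0.13, adjusted p = 3.61e-05), MRPL51 (-0.63 ± 0.11, adjusted p = 5.79e-05) and 3 members called in opposite directions against DMSO. Of these, MRPS34, a metazoan small-subunit protein without a bacterial homologue, had 61.6, 59.7 and 66.9 CPM with FB23-2, 99.6, 97 and 117 CPM with CS2 and 81.5, 74.8 and 77.2 CPM with DMSO. DMSO again lay between the compounds with no overlap, and MRPS34 was 1.67-fold lower with FB23-2 than with CS2 (-0.74 ± 0.09, adjusted p = 4.68e-07). MRPL49 had 78.1, 66.5 and 85.0 CPM with FB23-2, 115, 123 and 114 CPM with CS2 and 105, 92.6 and 89.98 CPM with DMSO (-0.62 ± 0.09 for FB23-2 minus CS2, adjusted p = 8.12e-06). MRPL28 had 72.5, 68.3 and 72.2 CPM with FB23-2, 103, 99.2 and 116 CPM with CS2 and 93.5, 86.6 and 92.8 CPM with DMSO (-0.58 ± 0.08, adjusted p = 3.85e-06). In both, all CS2 libraries exceeded all DMSO libraries and all FB23-2 libraries lay below them. The decreases against DMSO with FB23-2 of MRPS34 (0.03) and MRPL28 (-0.08) were lost after the correction for GC content and span. Against DMSO, MRPL49 with CS2 (0.29 ± 0.09, adjusted p = 0.0109) lost its call without CS2 replicate 2 (0.26) and without DMSO replicate 2 (0.27) or 3 (0.25). MRPL28 with CS2 (0.22 ± 0.08, adjusted p = 0.0267) lost it without CS2 replicate 3 (0.16) and without DMSO replicate 2 (0.19) or 3 (0.24).

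Smaller differences between the compounds depended on single libraries. MRPL11 (-0.30 ± 0.10, adjusted p = 0.0112) and MRPL1 (-0.33 ± 0.12, adjusted p = 0.0206) were lower with FB23-2 than with CS2, calls lost without CS2 replicate 3 (-0.21 and -0.19). MRPS30 (-0.27 ± 0.09, adjusted p = 0.0149) lost its call without CS2 replicate 2 (-0.23), CS2 replicate 3 (-0.25), FB23-2 replicate 1 (-0.20) or FB23-2 replicate 3 (-0.22). MRPL42 (0.24 ± 0.10, adjusted p = 0.0428) lost it without any 1 DMSO library (0.24), CS2 replicate 1 (0.12), CS2 replicate 2 (0.23) or FB23-2 replicate 2 (0.16). Nor was MRPL42 called by DESeq2 (0.24) or with only the 6 libraries compared (0.24). Called under every alternative were 7 of the 10 higher members (MRPL17, MRPL24, MRPL30, MRPL45, MRPL58, MRPS5, MRPS33) and 16 of the 26 lower ones. Without FB23-2 replicate 2 the comparison called 39 members, 9 higher and 30 lower.

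**Figure D4:**
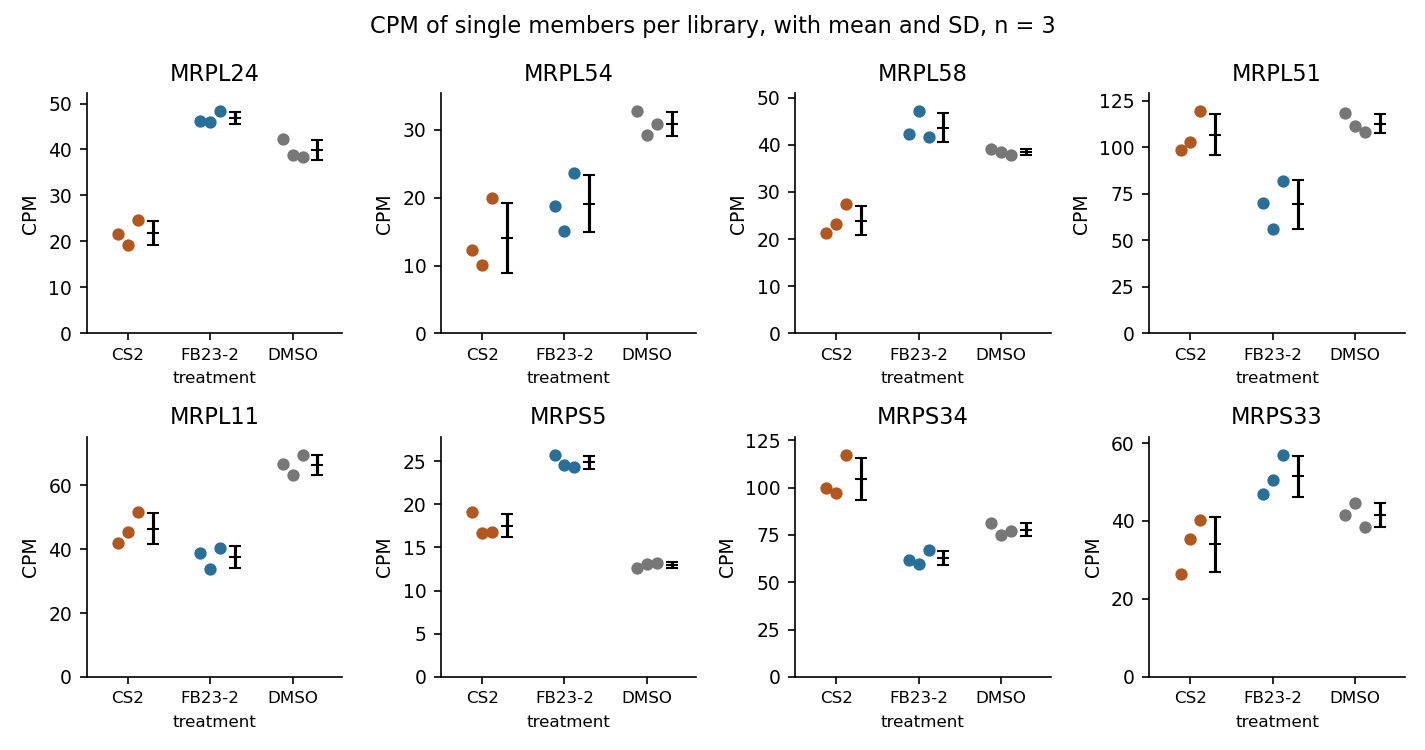
CPM (y axis, from 0) of 8 members in each library (points) for CS2, FB23-2 and DMSO, with mean and SD (bars, n = 3). MRPL24, MRPL58 and MRPS34 differ between the compounds, MRPL54 and MRPL11 are below DMSO with both, MRPL51 is low with FB23-2, and MRPS5 is above DMSO with both.

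In none of the comparisons were 18 of the 77 members called, 10 of the large and 8 of the small subunit, and 21.5% of all genes tested were called in none. MRPS27, a pentatricopeptide-repeat protein and the member with the most counts, had 134, 146 and 141 CPM with CS2, 136, 145 and 138 CPM with FB23-2 and 141, 145 and 143 CPM with DMSO, with log2 fold changes of -0.02 ± 0.07, -0.03 ± 0.07 and -0.01 ± 0.07. After the correction for GC content and span MRPS27 was called, at 0.16 for CS2 minus DMSO (adjusted p = 0.0234) and -0.23 for FB23-2 minus CS2 (adjusted p = 0.00205). Human cells have 3 paralogues of the bacterial protein S18. MRPS18B had 78.4, 80.2 and 80.2 CPM with CS2, 79.3, 81.5 and 83.3 CPM with FB23-2 and 74.4, 74.7 and 73.3 CPM with DMSO, a difference of 0.10 ± 0.07 with CS2 (adjusted p = 0.259) and 0.13 ± 0.07 with FB23-2 (adjusted p = 0.133). Its treated libraries all lay above DMSO by a small step that did not pass the test, although with FB23-2 MRPS18B was called after the same correction (0.22, adjusted p = 0.01). MRPS18A had 14.3, 16.8 and 16.7 CPM with CS2, 11.4, 18.7 and 13.9 CPM with FB23-2 and 14.6, 16.9 and 14.5 CPM with DMSO, and the groups overlapped. Other genes overlap 47.0% of the exon bases of MRPS18A and 40.2% of those of MRPS18C, so their levels are uncertain. MRPS18C had 6.78, 6.94 and 8.38 CPM with CS2, 5.22, 5.61 and 6.39 CPM with FB23-2 and 7.08, 7.35 and 6.80 CPM with DMSO. It was called only for FB23-2 minus CS2 (-0.36 ± 0.14, adjusted p = 0.0366), and leaving out FB23-2 replicate 1 (-0.29) or 2 (-0.34), CS2 replicate 3 (-0.25) or DMSO replicate 3 (-0.36) ended that call. DESeq2 (-0.36), no filter (-0.37) and only the 6 libraries compared (-0.36) ended it too. MRPL46, with 5.01, 3.76 and 5.46 CPM with CS2, 6.35, 5.32 and 5.16 CPM with FB23-2 and 5.47, 4.96 and 4.73 CPM with DMSO, and MRPS24 were not called either.

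Set against each other as sums per kilobase, the large subunit was lower relative to the small with both compounds than with DMSO. With CS2 the direction depended on the measure, and the median log2 fold changes of members were close (0.00 large, 0.06 small). The summed level of the large-subunit members was 968, 997 and 1137 CPM per kilobase with CS2, 899.8, 892 and 979 with FB23-2 and 1127, 1066 and 1058 with DMSO. The summed level of the small-subunit members was 582, 603 and 653 CPM per kilobase with CS2, 518, 515 and 537 with FB23-2 and 580.3, 559 and 552 with DMSO. With CS2 the small-subunit sums thus all lay above those with DMSO, by 582 against 580.3 at the closest, while the large-subunit sums overlapped. MRPS34 alone averaged 95.4 CPM per kilobase with CS2 and 70.9 with DMSO, beside mean small-subunit sums of 613 and 564. With FB23-2 both sums were below DMSO. The log2 ratio of large to small was 0.73, 0.73 and 0.80 with CS2, 0.80, 0.79 and 0.87 with FB23-2 and 0.96, 0.93 and 0.94 with DMSO, so neither compound overlapped DMSO. Means were 0.75 ± 0.041 with CS2, 0.82 ± 0.043 with FB23-2 and 0.94 ± 0.014 with DMSO (SD, n = 3 each), a difference of -0.19 for CS2 minus DMSO and -0.12 for FB23-2 minus DMSO. No p is given for a sum over members. The lower ratio with CS2 held when MRPS18A and MRPS30 were counted with the large subunit and MRPS36 was left out (-0.18). But the difference between subunit medians of log2 CPM, not divided by length, ran the other way for CS2 minus DMSO (0.26). For FB23-2 minus DMSO it kept the direction (-0.16). Median log2 fold changes of members with FB23-2 were -0.25 for the large and -0.06 for the small subunit. Once GC content and span were corrected for, the large minus small difference in these medians was -0.085. The ratio of summed levels is not reported here under that correction. The tested members together summed to 3456 to 3961 CPM with CS2, 3229 to 3422 CPM with FB23-2 and 3575 to 3754 CPM with DMSO.

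**Figure D5:**
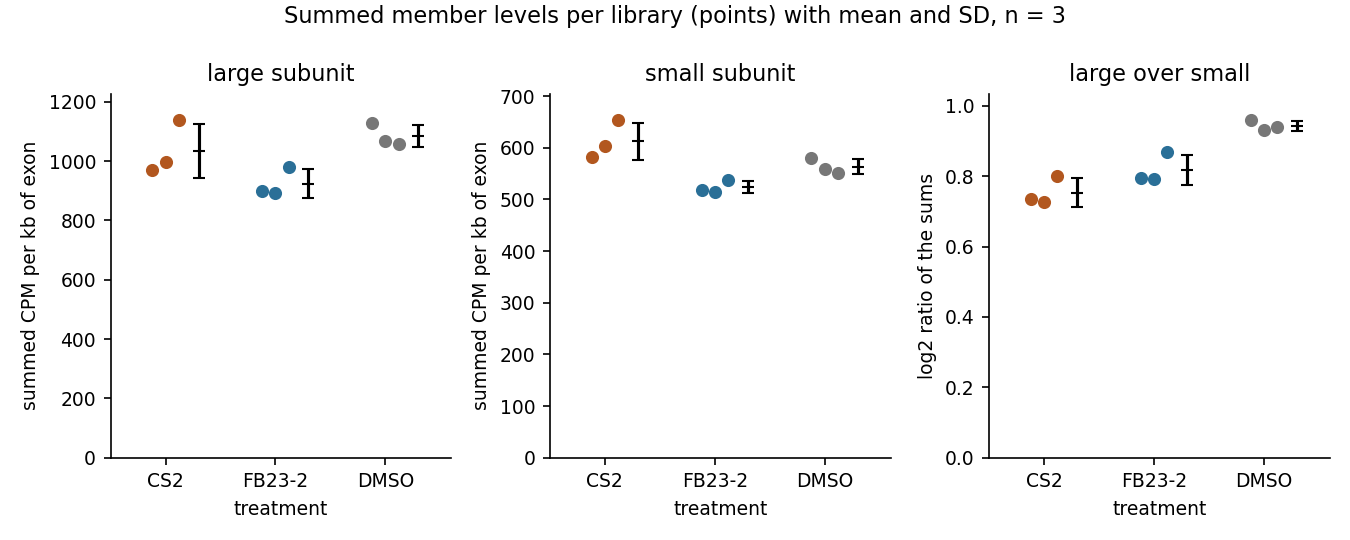
Summed CPM per kilobase of exon of the tested large-subunit (left, n = 48 genes) and small-subunit members (middle, n = 29 genes) and the log2 ratio of these sums (right) in each library (points) for CS2, FB23-2 and DMSO, with mean and SD (n = 3). The ratio was 0.73 to 0.80 with CS2 and 0.79 to 0.87 with FB23-2, below the 0.93 to 0.96 of the DMSO libraries.

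Members were also split by a fixed list of bacterial homologues. Of the S18 paralogues the list holds only MRPS18C, so the split is not strictly one by origin. The 13 members with small-subunit names outside the list, among them MRPS18A, MRPS18B and MRPS30, had 5 higher and 0 lower with CS2 (median 0.19). Of all genes, 24.3% were higher and 25.3% lower with CS2. With FB23-2 these 13 members had 3 higher and 1 lower (median 0.13). The 16 small-subunit members on that list had 4 higher and 4 lower with CS2 (median -0.09) and 1 higher and 5 lower with FB23-2 (median -0.16). In the large subunit, the 28 homologues had 4 higher and 6 lower with CS2 (median 0.02), and the 20 others 3 higher and 6 lower (median -0.04). Between the compounds the large-subunit homologues had 3 higher and 13 lower (median -0.30) and the others 4 higher and 5 lower (median -0.02). Across the 77 members, Spearman's rho of the log2 fold change with GC content of the transcripts was -0.08 for CS2 minus DMSO and -0.31 for FB23-2 minus DMSO, against 0.18 and -0.24 across 14028 protein-coding genes, and with gene span 0.19 and 0.30, against -0.30 and 0.07. These are descriptions across genes, which are not replicates.

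Counts of the rRNAs around which the subunits assemble were higher with both compounds. The libraries were made with a kit for messenger RNA, so these counts need not follow the rRNA content of the cells. MT-RNR1 had 5244, 5863 and 4385 CPM with CS2, 1508, 2225 and 1501 CPM with FB23-2 and 1235, 1099 and 946 CPM with DMSO. It rose 4.72-fold with CS2 (2.24 ± 0.18, adjusted p = 2.69e-06) and 1.60-fold with FB23-2 (0.67 ± 0.17, adjusted p = 0.00723), and was lower with FB23-2 than with CS2 (-1.57 ± 0.17, adjusted p = 2.19e-05). MT-RNR2 averaged 35998 ± 4922 CPM with CS2, 22739 ± 9476 CPM with FB23-2 and 8759 ± 656 CPM with DMSO (SD, n = 3 each). It rose with CS2 (2.04 ± 0.28, adjusted p = 0.000764) and with FB23-2 (1.38 ± 0.28, adjusted p = 0.0047), and FB23-2 replicate 2 held the highest FB23-2 level of both rRNAs. The difference in MT-RNR2 between FB23-2 and CS2 did not pass the test (-0.66 ± 0.27, adjusted p = 0.0725). It was called under 6 of the 18 alternatives, among them leaving out FB23-2 replicate 2 (-1.06, adjusted p = 1.95e-10), and over all of them ranged from -1.06 to -0.48.

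The shares of all genes given above for each comparison are the background for the counts in the lists that follow: 24.3% higher and 25.3% lower with CS2, 25.4% and 26.7% with FB23-2, and 29.7% and 30% for FB23-2 minus CS2. Of the 5 subunits that carry other names, 2 were higher and 0 lower with CS2, 1 higher and 3 lower with FB23-2, and 2 higher and 3 lower between the compounds. GADD45GIP1, a large-subunit protein, had 100, 97.5 and 119 CPM with CS2, 61.4, 64.9 and 61.0 CPM with FB23-2 and 91.7, 80.5 and 78.4 CPM with DMSO. It rose with CS2 (0.34 ± 0.09, adjusted p = 0.00393) and fell with FB23-2 (-0.42 ± 0.09, adjusted p = 0.000593), the second call being lost after the correction for GC content and span (-0.18). CHCHD1, of the small subunit, had 27.8, 23.1 and 32.3 CPM with CS2, 16.9, 12.6 and 16.8 CPM with FB23-2 and 21.0, 19.5 and 19.1 CPM with DMSO, rising with CS2 (0.48 ± 0.13, adjusted p = 0.00411) and falling with FB23-2 (-0.37 ± 0.13, adjusted p = 0.0223). The decrease of CHCHD1 with FB23-2 was lost without DMSO replicate 1 (-0.33) or FB23-2 replicate 2 (-0.24). AURKAIP1, also of the small subunit, fell with FB23-2 (-0.67 ± 0.11, adjusted p = 2.47e-05). DAP3, a GTP-binding small-subunit protein, had 99.9, 108 and 109 CPM with CS2, 119, 130 and 133 CPM with FB23-2 and 122, 113 and 118 CPM with DMSO, and was called only between the compounds (0.27 ± 0.08, adjusted p = 0.00495).

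Among 25 genes for assembly and rRNA modification, 9 were higher and 4 lower with CS2, 9 higher and 7 lower with FB23-2, and 5 higher and 6 lower between the compounds. As shares, 7 of 25 lower with FB23-2 lay near the 26.7% of all genes. TFB1M, which dimethylates the small-subunit rRNA, had 9.52, 9.22 and 10.4 CPM with CS2, 23.2, 19.8 and 20.8 CPM with FB23-2 and 16.6, 17.0 and 16.9 CPM with DMSO. It fell with CS2 (-0.79 ± 0.11, adjusted p = 5.72e-06) and rose with FB23-2 (0.34 ± 0.10, adjusted p = 0.0103). RCC1L, a factor of large-subunit assembly, had 75.4, 67.8 and 80.3 CPM with CS2, 33.1, 20.6 and 32.6 CPM with FB23-2 and 70.2, 59.3 and 63.9 CPM with DMSO, and fell 2.25-fold with FB23-2 (-1.17 ± 0.14, adjusted p = 4.15e-06). NOA1, a GTPase of mitochondrial translation, rose with FB23-2 (0.69 ± 0.11, adjusted p = 3.16e-05), and METTL17, an assembly factor of the small subunit, rose with CS2 (0.48 ± 0.11, adjusted p = 0.0011).

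Of 16 translation factors, 1 was higher and 5 lower with CS2, 5 higher and 4 lower with FB23-2, and 7 higher and 3 lower between the compounds. MRRF, the ribosome recycling factor, had 20.6, 19.4 and 25.8 CPM with CS2, 55.2, 61.5 and 54.4 CPM with FB23-2 and 35.2, 37.2 and 35.7 CPM with DMSO. DMSO lay between the compounds, and MRRF fell with CS2 (-0.71 ± 0.10, adjusted p = 1.17e-05) and rose with FB23-2 (0.66 ± 0.10, adjusted p = 1.88e-05). MTRF1, a release factor, had 3.24, 2.45 and 3.06 CPM with CS2, 5.34, 7.62 and 5.01 CPM with FB23-2 and 7.24, 8.43 and 7.15 CPM with DMSO, and fell with CS2 (-1.38 ± 0.18, adjusted p = 3.61e-06). GUF1, an elongation factor of the LepA family, fell with CS2 (-0.75 ± 0.11, adjusted p = 1.14e-05), and SLIRP, which with LRPPRC stabilises mitochondrial messenger RNAs, fell with FB23-2 (-0.62 ± 0.12, adjusted p = 0.000218).

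Of 12 regulators of nuclear genes for mitochondrial proteins, 1 was higher and 7 lower with CS2, 3 higher and 5 lower with FB23-2, and 4 higher and 0 lower between the compounds. GABPA, the DNA-binding ETS subunit of GABP, fell by 0.31 ± 0.09 on the log2 scale with CS2 and by 0.33 ± 0.09 with FB23-2 (adjusted p = 0.0095 and 0.0056). GABPB1, its partner, fell by 0.51 ± 0.10 and 0.46 ± 0.10, NRF1 by 0.55 ± 0.09 and 0.32 ± 0.09, and YY1 by 0.29 ± 0.07 and 0.24 ± 0.07, in the same order of compounds. These 4 were picked after their values were seen. ATF4, a factor of another counted element, differed in opposite directions with the compounds, as given below, and values for E-box factors are not given. A link between these factors and the members was not tested. PPARGC1A, a coactivator of mitochondrial biogenesis, had 8.43, 9.73 and 9.12 CPM with CS2, 13.8, 21.0 and 17.0 CPM with FB23-2 and 3.18, 4.64 and 3.95 CPM with DMSO, and rose with CS2 (1.22 ± 0.17, adjusted p = 5.39e-06) and with FB23-2 (2.14 ± 0.16, adjusted p = 2.08e-09). PPARGC1B, its relative, had 28.7, 28.8 and 31.6 CPM with CS2, 70.4, 75.1 and 75.2 CPM with FB23-2 and 72.6, 73.3 and 76.4 CPM with DMSO, and fell with CS2 (-1.32 ± 0.08, adjusted p = 1.45e-10). ATF4, a stress-response factor, had 235, 215 and 236 CPM with CS2, 809, 920 and 833 CPM with FB23-2 and 374, 318 and 322 CPM with DMSO, falling with CS2 (-0.56 ± 0.08, adjusted p = 8.17e-06) and rising with FB23-2 (1.34 ± 0.08, adjusted p = 6.88e-11).

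Set beside the promoters printed above, members with ETS letters included ones lower with FB23-2 (MRPL20, MRPL51, MRPS34) and one lower with CS2 (MRPL58). Of 26 members with a promoter entry that were lower with FB23-2, 13 held ETS letters, as did 12 of 35 that were not called and 3 of 7 that were higher. Divergent partners did not always follow their member. With CS2, MRPL32 was 0.39 higher and PSMA2, whose start lies 23 bases away, was 1.79 ± 0.34 lower on the log2 scale (adjusted p = 0.00023). With FB23-2, MRPL27 was 0.69 lower while EME1, 6 bases away, was 1.23 ± 0.09 higher (adjusted p = 2.01e-09). MRPL36 and NDUFS6, 34 bases apart, were both lower with FB23-2 (-0.36 and -0.62), the call of MRPL36 being lost after the correction for GC content and span (-0.21). All these distances are between outermost GENCODE starts. The RefSeq promoter window of MRPL36 (chr5:1799788-1800087 on the minus strand) does not contain its GENCODE start (1801366). These pairs were chosen after their values were seen.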

How the data were processed

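RNA of NCI-H69 cells was extracted with TRIzol and made into libraries with a Hieff kit for messenger RNA, as the labels' protocols say. The table that the authors deposited holds read counts as whole numbers for each Ensembl ID, and the submitters' processing notes name build hg38. The aligner, counter, annotation and strand setting, not given in the sources used here, are unknown, which makes counts of overlapping genes uncertain. The column headed FB23 was taken as FB23-2.

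From these counts CPM was computed by dividing each count by its library's total over the tested genes times its TMM factor. These factors ranged from 0.950 to 1.04. Where genes are compared, CPM was divided by kilobases of exon. Differences were tested with edgeR 4.0.16 (limma 3.58.1, R 4.3.3): genes kept by filterByExpr (minimum count 10, minimum total 15), TMM scaling, robust quasi-likelihood fits of all 9 libraries together, and Benjamini-Hochberg adjustment over 19781 genes, which held at least 99.9% of each library's counts. The common biological coefficient of variation was 0.101. A gene was called at an adjusted p under 0.05, and the standard error is the log2 fold change divided by the square root of F. The steps were tested on simulated data. Alternatives were other scalings, filters, DESeq2 1.42.0, the replicate number as a block, a correction for GC content and gene span, and leaving out libraries or the mitochondrial genome.

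No replicate pair looked like a library deposited again (lowest chi-square per degree of freedom 4.21). The members, lists and tests were chosen with earlier results of these data known. Named members are the 4 highest and 4 lowest called members of each comparison, the 3 highest and 3 lowest levels per length with DMSO, a list fixed by name, and members called in all 3 comparisons. From other lists, the genes named are called ones with the largest differences, with a few more for their roles. Gene positions and overlaps come from GENCODE 29 and promoters from RefSeq. A level that 3 counts give covers counting error only and was computed without the TMM factor. A further neuroendocrine marker is not reported here.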

Additional observations from a re-analysis of the deposited data

How the results depend on the processing

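With TMM scaling, the median log2 fold change of all genes tested was -0.0020 for CS2 minus DMSO and -0.00098 for FB23-2 minus DMSO. For FB23-2 minus CS2 it was 0.0097. Whether other scalings move this median was not tested. Of 9 same-number pairs of libraries, 2 correlated above 0.1 (-0.03 to 0.17). Same-number pairs with DMSO correlated at -0.03 to 0.02. Between CS2 and FB23-2 they correlated at 0.17, 0.12 and 0.05, against -0.14 to 0.02 for other numbers. The labels state no batch. With the replicate block, all calls were kept and the members higher with FB23-2 than with DMSO numbered 13. They were 12 after the correction for GC content and gene span, and 12 with the replicate block and that correction together. Under the correction, without and with the block, the large-subunit median for FB23-2 minus DMSO was -0.15 and -0.15, its difference from the small-subunit median -0.085 and -0.087, and that difference for FB23-2 minus CS2 0.050 and 0.050. It also turned MRPS27 for CS2 minus DMSO (0.16 and 0.16), MRPL41 (0.16 and 0.16) and MRPS34 (0.026 and 0.021) for FB23-2 minus DMSO, and MRPL41 (0.31 and 0.31) and MRPL42 (-0.090 and -0.087) for FB23-2 minus CS2.

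The log2 ratio of large to small subunit for CS2 minus DMSO was -0.12 with counts not divided by length, -0.24 without members of uncertain counting, and 0.26 for medians not divided by length, an alternative chosen after seeing the data. By those medians it was -0.16 for FB23-2 minus DMSO and -0.42 for FB23-2 minus CS2. The last difference was -0.0012 with counts not divided by length and 0.11 without uncertain members. The causes were not tested. Leaving out 1 library at a time, 21 to 37 members were called with CS2, 10 to 19 higher and 9 to 18 lower, and with FB23-2 2 to 9 were higher and 20 to 31 lower than with DMSO. The large-subunit median for FB23-2 minus DMSO ranged from -0.26 to -0.19, and the large minus small difference for FB23-2 minus CS2 from -0.16 to -0.044. The other 426 summary values moved by less than the spread or under 1.5 times.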
